A study of Drosophila melanogaster with 3 samples.

Results

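Octopamine and its precursor tyramine are the insect counterparts of noradrenaline and adrenaline. Both act through G protein-coupled receptors, which pass the signal on by raising or lowering cyclic AMP or by releasing calcium inside the cell. In the fly brain octopamine drives arousal, walking and feeding-related behavior, and some octopaminergic neurons carry octopamine receptors themselves and so respond to the amine they release. The receptors fall into alpha-adrenergic-like types (Oamb and Octalpha2R), beta-adrenergic-like types (Octbeta1R, Octbeta2R and Octbeta3R) and tyramine types (Oct-TyrR and TyrR).

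These 7 receptor genes were chosen by name and matched by FlyBase gene ID. Expression values were present for 5 of them, Oamb, Octbeta2R, Octbeta3R, Octalpha2R and TyrR, out of 11922 genes in all. Octbeta1R and Oct-TyrR are not analysed here.

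The values came from 3 AKHR+ neuron libraries, called cells 1, 2 and 3 after the numbers in their labels. AKHR is the receptor for AKH (adipokinetic hormone), which the fly releases when hungry, and the study describes AKHR+ neurons that drive starvation-induced hyperactivity as octopaminergic. All 3 libraries belonged to a single group of flies aged 5 days and kept on normal food. The flies carried the driver nSyb-AD-AKHR-BD-GAL4 together with the reporter UAS-mCD8gfp. This split GAL4 marks with membrane GFP the cells in which both the nSyb and the AKHR driver fragments are active. The labels name each library as a neuron but also speak of pooled single cells, so each may hold 1 cell or several, and fewer expressing cells cannot be told apart from less RNA per cell. The sex of the flies is not stated in the labels, but the study's methods name virgin females as its default. Nothing says whether the cells came from separate brains. Expression was given as FPKM, the fragments of a gene scaled by its exon length and by the mapped total, and genes at an FPKM of 1 or more were counted as detected.

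Cell 1 held fewer detected genes than the others, 4389 against 6046 in cell 2 and 5626 in cell 3. A 0 in these files is reported only as a listed value, since a missed transcript cannot be told from an absent one. Of 78 genes with cytosolic ribosomal protein symbols, 5, 4 and 3 were also listed at 0 in cells 1, 2 and 3. These were not examined by gene and may include copies not used in these cells. They therefore do not show that transcripts were missed. AkhR, the gene whose regulatory sequence marked the cells, had an FPKM of 14.7, 1.90 and 2.52. All 4 neuronal markers analysed were detected in every cell, but so were all 6 photoreceptor markers, 4 of 5 glial markers, 4 of 6 fat body markers and 2 of 6 muscle markers. Among the neuronal markers, elav was lowest in cell 1 (FPKM 4.36, against 54.6 and 50.1 in cells 2 and 3). Syx1A was highest in cell 1 (675, against 296 and 335). Of all genes, 31.1% were detected in every cell. The fat body markers Fbp1 and Fbp2 and the muscle marker Act88F were listed at 0 in all cells. Neuronal transcripts were thus present as labelled, together with transcripts of other cell types. Summed over their lists, the photoreceptor markers reached an FPKM of 2745 to 8050, the glial markers 1132 to 1174, the muscle markers 16.0 to 391 and the fat body markers 20173 to 32892.

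All 5 receptor genes lie on chromosome arm 3R on the minus strand (BDGP6 annotation). Oamb (FBgn0024944) spans 20689018 to 20714577 and has 6 annotated transcripts of 3443 to 4098 bases. Octalpha2R (FBgn0038653) spans 18799280 to 18849224, and its 3 transcripts are the longest of the group, at 9717 to 9804 bases, with an intron of 38.1 kb. TyrR (FBgn0038542) spans 17750129 to 17763188, with 3 transcripts of 4299 to 5221 bases. It lies 2658 bases from TyrRII, a related tyramine receptor gene on the opposite strand. Octbeta3R (FBgn0250910, 12511570 to 12548229, 4 transcripts of 3668 to 6101 bases) and Octbeta2R (FBgn0038063, 12550625 to 12595725, 6 transcripts of 2260 to 6672 bases) are neighbours with 2395 bases between them. The microRNA gene mir-284 lies within an exon of Octbeta2R on the same strand. Exons make up from 16.6% of the locus in Octbeta3R to 42.0% in TyrR.

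**Figure D1:**
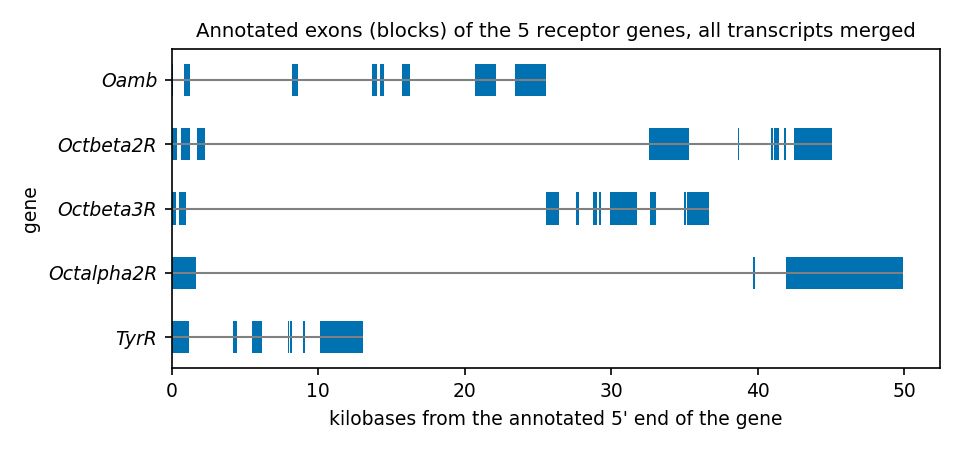
Annotated exons of the 5 receptor genes. The x axis is the distance in kilobases from the annotated 5′ end of each gene, blocks are exons of all transcripts merged, and lines are introns and other non-exonic sequence. Octalpha2R has the widest span (49.9 kb) and only 3 merged exons, with most of its exon sequence in the 3′ block.

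Octalpha2R was the receptor with the highest listed FPKM in each of the 3 cells, in cell 2 only narrowly above Oamb. This alpha-adrenergic-like receptor lowers cyclic AMP when octopamine binds it in cultured cells. Cells 1, 2 and 3 held it at an FPKM of 18.3, 22.7 and 38.3, with a mean of 26.4 ± 10.5 (SD, n = 3). The cells were close to each other, the highest 2.09-fold above the lowest. By an estimate of depth that was least firm for cell 2, these values rested on about 1186, 1393 and 2450 fragments. Octalpha2R stood at percentile 75.7, 74.1 and 81.4 of all genes in cells 1, 2 and 3. Its range between cells, 1.02 on the log2(FPKM + 1) scale, was at percentile 17.1 of the 5661 genes that reached FPKM 10 in at least 1 cell, whose median range was 2.73. Octalpha2R was among the 2457 genes that reached FPKM 10 in all 3 cells. The rest of the 5661 fell below 10 in some cell, which by itself makes for wider ranges.

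Oamb, the other alpha-adrenergic-like receptor, raises intracellular calcium and is needed for ovulation and for reward learning in the fly. The FPKM of Oamb was 0.593 in cell 1, 21.4 in cell 2 and 1.47 in cell 3. Cell 2 thus stood apart, 36.0-fold above cell 1, while the other two cells lay on either side of the detection threshold. About 15.0 fragments lay behind the value in cell 1 (95% exact Poisson interval 8.37 to 24.7), 511 behind that in cell 2 (467 to 557) and 36.6 behind that in cell 3 (25.7 to 50.5). The intervals of cells 1 and 3 nearly touch, and that of cell 2 lies far above both. All of them cover only the counting of fragments at the estimated depth. They leave out the amplification of the cDNA before sequencing and the error of the depth itself, so they do not test the cells against each other. The mean of 7.81 ± 11.7 (SD, n = 3) had a spread larger than itself, and without cell 2 it went to 1.03.

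Within cells, Oamb was below Octalpha2R in 3 of 3 cells. The difference of log2(FPKM + 1), Oamb minus Octalpha2R, was -3.60, -0.08 and -3.99 in cells 1, 2 and 3 with a mean of -2.56 ± 2.15 (SD, n = 3). In cell 2 both receptors therefore had nearly the same FPKM, while in cells 1 and 3 Oamb was near the detection threshold. An exact permutation test that flips the sign of each difference (two-sided) gave p = 0.25 (0.25 after Benjamini-Hochberg adjustment over 2 pairs), the smallest that 3 cells can give.

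The beta-adrenergic-like receptors raise cyclic AMP. Octbeta3R, known for its role in the prothoracic gland in the control of molting hormone, was detected in every cell. Cell 1 held it at an FPKM of 1.03, cell 2 at 15.1 and cell 3 at 2.90, on about 32.7, 456 and 91.5 fragments. The mean was 6.33 ± 7.63 (SD, n = 3). As for Oamb, cell 2 was the highest, 14.7-fold above cell 1, and the value in cell 1 lay just above the detection threshold. Without cell 2 the mean fell to 1.96. No exon of another gene overlaps those of Octbeta3R in the annotation, although the gene Hug lies inside one of its introns on the opposite strand.

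Octbeta2R, which acts in octopaminergic neurons of the larva as an autoreceptor that promotes growth at the nerve-muscle junction during starvation, was the only receptor of the 5 that was detected in 0 cells. It was listed at 0 in cells 1 and 3, and its FPKM of 0.290 in cell 2 rested on about 7.30 fragments (95% exact Poisson interval 3.0 to 14.8). The count of fragments depends on the transcript, since the 6 annotated forms differ in length, and it was 4.11 with the shortest and 12.1 with the longest. At the larger depth that a wider search gave for cell 2, it was 14.6. Whether a neuron lacked it cannot be read from values this low.

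Octbeta3R therefore exceeded its neighbour Octbeta2R in 3 of 3 cells. The difference of log2(FPKM + 1), Octbeta3R minus Octbeta2R, was 1.02, 3.64 and 1.96 (mean 2.21 ± 1.33, SD, n = 3). The same exact permutation test gave p = 0.25, again the smallest possible (0.25 adjusted over 2 pairs). Because Octbeta2R was listed at 0 in cells 1 and 3, the size of this difference rests on the pseudocount. It went to 4.56 at a pseudocount of 0.1.

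TyrR, a receptor that responds to tyramine rather than octopamine, was detected in cells 2 and 3 and listed at 0 in cell 1. Its FPKM was 15.8 in cell 2 and 13.5 in cell 3, on about 465 and 414 fragments. Both values lay between percentile 66.7 and 68.5 of all genes of their cell, close to each other. Among all genes, 7.73% were likewise listed at 0 in cell 1 and detected in cells 2 and 3. TyrRII, its neighbour, was listed at 0 in all 3 cells.

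**Figure D2:**
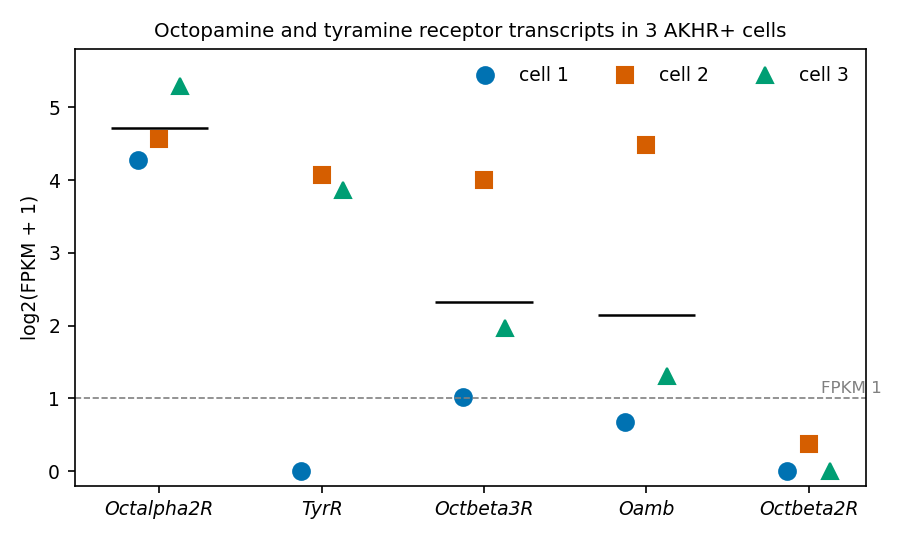
Level of each receptor gene in each cell. The y axis is log2(FPKM + 1), each point is 1 cell (circle, cell 1; square, cell 2; triangle, cell 3), black lines are means over cells for the genes above 0 in every cell, and the dashed line marks FPKM 1. Octalpha2R lies between 4.27 and 5.29 in all cells, while Oamb and Octbeta3R are high in cell 2 alone and TyrR is at 0 in cell 1.

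Of the 5 receptors, 2 were detected in all 3 cells (Octbeta3R and Octalpha2R), against 31.1% of all genes. Oamb and TyrR were detected in cells 2 and 3 only. Thus 2, 4 and 4 receptors were detected in cells 1, 2 and 3, against 36.8%, 50.7% and 47.2% of all genes. With 5 receptors, nothing is read from the distance between these shares. The count of 2 rested on cell 1, and 4 receptors were detected in both other cells. At FPKM of at least 0.1 there were 3, where 35.4% of all genes passed. At FPKM of at least 10 only Octalpha2R passed in all 3 cells, where 20.6% of all genes did. Only Octbeta2R was not detected in any cell, and 57.7% of all genes were detected in at least 1.

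By listed FPKM, Octalpha2R was at the top in every cell, and the order varied below it. In cell 2 Oamb (21.4) lay so close to Octalpha2R (22.7) that their order there is not firm. The pair of Oamb and Octalpha2R, counted here as in the same order, rests on it. Of the 10 pairs of receptors, 6 had the same order in all 3 cells, against 54.9% of all pairs of genes that were above 0 in at least 1 cell. Octalpha2R was part of 4 of these pairs, and the other 2 set Oamb and Octbeta3R above Octbeta2R. Below Octalpha2R, the second place went to Octbeta3R in cell 1, to Oamb in cell 2 and to TyrR in cell 3. Octbeta3R minus TyrR was 1.02, -0.07 and -1.90 on the log2(FPKM + 1) scale, so their order differed between cells 1 and 3, the value in cell 1 resting on the listed 0 of TyrR. Oamb minus Octbeta3R was -0.35, 0.48 and -0.66 (mean -0.18 ± 0.59, SD, n = 3), a difference smaller than its spread.

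The summed FPKM of the 5 receptors was 19.9, 75.3 and 56.1 in cells 1, 2 and 3. Octalpha2R made up 91.9% of this sum in cell 1, 30.1% in cell 2 and 68.1% in cell 3. In cell 1 Octbeta3R and Oamb added low values to it, whereas in cell 2 the levels of 4 receptors lay between an FPKM of 15.1 and 22.7.

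Cell 2 had the highest value for 4 of the 5 receptors (Oamb, Octbeta2R, Octbeta3R and TyrR), where 39.3% of the 7207 genes above 0 in at least 1 cell were highest in that cell. Some marker lists were also mostly highest there, namely 5 of 6 photoreceptor markers, 4 of 5 glial markers and 5 of 6 muscle markers, but only 1 of 6 fat body markers was. The fat body markers Fbp1 and Fbp2 and the muscle marker Act88F, listed at 0 in all cells, could not be highest in any. The summed muscle markers reached 136, 391 and 16.0 and the summed photoreceptor markers 3924, 8050 and 2745 (FPKM, in the order of the cells). The glial sum hardly moved, at 1132, 1170 and 1174, although its nuclear marker repo was at 3.77, 51.5 and 9.63, and the fat body sum was highest in cell 3, at 20173, 29450 and 32892. Of the neuronal markers, 3 of 4 were highest in cell 2, but their sum was highest in cell 1, at 813, 680 and 584, through Syx1A (675, 296 and 335). The part of these cells in the receptor values was not tested.

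Genes that make and load the amines were set beside their receptors. Tdc2, the neuronal tyrosine decarboxylase that makes tyramine, was listed at 0 in cell 1 and had FPKM values of 13.3 and 8.58 in cells 2 and 3. Tbh, which turns tyramine into octopamine, was likewise at 0, 7.34 and 12.6. Both enzymes and TyrR were thus above 0 in cells 2 and 3, a pattern shared by the 7.73% of genes given above. Tdc1, the decarboxylase used mostly outside the nervous system, was listed at 0 in cells 1 and 2 and was at 20.0 in cell 3. Vmat, the transporter that loads monoamines into vesicles, was at 154, 71.2 and 95.4. The gene e (ebony), whose product conjugates amines to beta-alanine, was at 5.21, 12.2 and 49.5. Cell 1 had the highest AkhR value of the 3 cells and was the one with neither enzyme nor TyrR above 0. The genes prt and speck of this list are not analysed here.

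**Figure D3:**
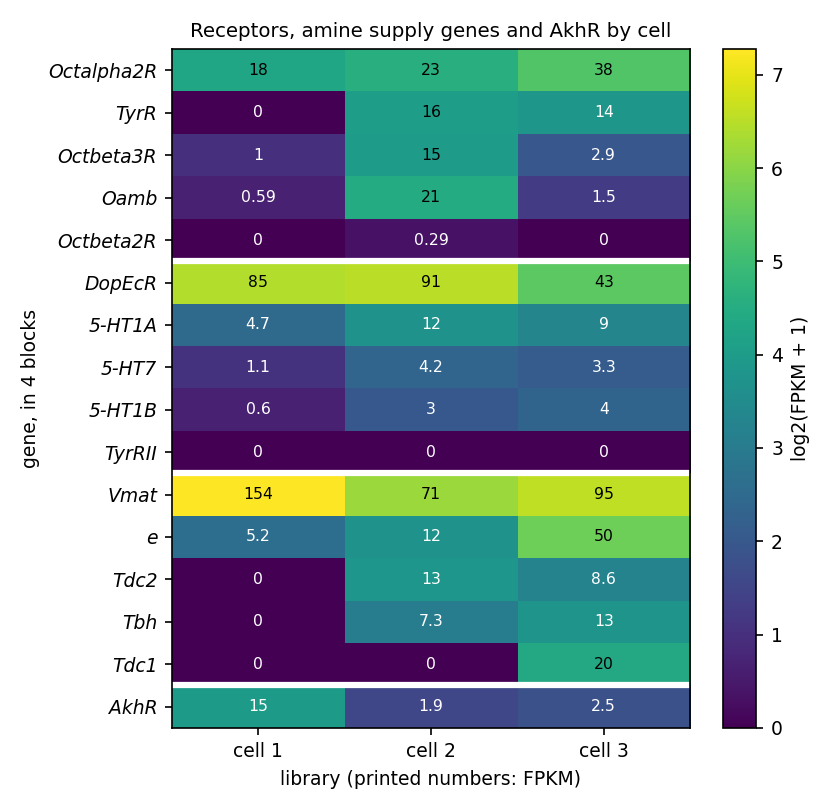
FPKM of the receptor genes (top block), other amine receptors together with the tyramine receptor gene TyrRII, amine supply genes and AkhR in cells 1 to 3. Color is log2(FPKM + 1) and the printed numbers are FPKM. TyrR, Tdc2 and Tbh share the pattern of 0 in cell 1 and values of 7.34 to 15.8 in cells 2 and 3, while Octalpha2R, DopEcR and Vmat are above an FPKM of 18 in every cell.

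Of 10 genes listed as other amine receptors, 5 were analysed. They include TyrRII, which is itself a tyramine receptor gene and was listed at 0 in all 3 cells. DopEcR, which binds dopamine and ecdysteroids, was at an FPKM of 85.5, 91.5 and 42.7 and stood above Octalpha2R in every cell. The serotonin receptors 5-HT1A (4.67, 11.9 and 9.01) and 5-HT7 (1.08, 4.22 and 3.31) stood below Octalpha2R in every cell. Of these 5 genes 3 were detected in all 3 cells, beside 2 of the 5 octopamine and tyramine receptors and 31.1% of all genes. The list medians of FPKM were 1.08, 4.22 and 4.04 for the other amine receptors and 0.593, 15.8 and 2.90 for the octopamine and tyramine receptors in cells 1, 2 and 3. The listed 0 of TyrRII lowers the medians of the other amine receptors. The median of all genes was 0, 1.28 and 0.135. The other amine receptor nearest to Octalpha2R over the 3 cells was 5-HT1A, with a root mean square difference of 1.61 in log2(FPKM + 1), and 5-HT7 was nearest to both Oamb (1.32) and Octbeta3R (0.941).

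Against the whole table, the genes nearest to Octalpha2R over the 3 cells were tna (root mean square difference 0.107 in log2(FPKM + 1)), Dap160 (0.162) and Pdss2 (0.163). Those nearest to Oamb were CG30015 (0.0809), BtbVII (0.218) and CG12241 (0.232), each of them also highest in cell 2. For Octbeta3R they were CG8191 (0.144), kermit (0.163) and CG16972 (0.167). Each search ran over 11793 genes with a symbol and only 3 cells, so such close matches are a description of level and say nothing of shared control.

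The receptors act through heterotrimeric G proteins, made of alpha, beta and gamma subunits. All 6 G protein genes analysed, out of 11 listed, were detected in every cell, against 31.1% of all genes. The list was not limited to subunits known to serve octopamine receptors. The gamma subunit Ggamma1 was at an FPKM of 928, 1515 and 1469, the gamma subunit Ggamma30A at 1445, 1226 and 1110 and the beta subunit Gbeta13F at 354, 344 and 427. The alpha subunits that the octopamine receptors use (Galphas, Galphaq, Galphai and Galphao) are not analysed here. Photoreceptor markers were also high in these libraries. The share of photoreceptor and other cell types in the values of these genes, and of the signaling genes below, was not tested.

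The cyclic AMP branch is activated by the beta-type receptors and lowered by Octalpha2R. Of the 17 genes listed for this branch, 12 were detected in all 3 cells, against 31.1% of all genes. The list was not limited to genes known to act on cyclic AMP or respond to it. It counts the phosphodiesterase genes Pde6 and Pde9 and the gene CrebA. The highest were Pka-R1, a regulatory subunit of protein kinase A (69.1, 80.2 and 148), Pka-C1, its main catalytic subunit (102, 82.0 and 71.7), and dnc, a phosphodiesterase that breaks cyclic AMP down (137, 38.1 and 48.7). Pka-C2 was listed at 0 in all cells. Of the 11 genes listed for the calcium branch, which Oamb uses, 7 were detected in all 3 cells, against the same 31.1% of all genes. This list was not limited to genes known to serve octopamine receptors. Cam (calmodulin) was at 1704, 1548 and 2007, CaMKII, a calcium-dependent kinase, at 62.5, 147 and 201, and the protein kinase C gene Pkc98E at 64.1, 82.9 and 76.0.

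Of 5 genes that switch receptors off, 3 were detected in all 3 cells, against 31.1% of all genes. Gprk1, a kinase that phosphorylates active receptors, was at an FPKM of 146, 168 and 109, above every octopamine and tyramine receptor in each cell. Gprk2, of the same family, was at 4.64, 13.4 and 20.4, and the regulator of G protein signaling RSG7 at 1.05, 19.5 and 27.8. The median of the mean log2(FPKM + 1) was 2.33 over the octopamine and tyramine receptors, 1.85 over the other amine receptors, 2.36 over the amine supply genes, 3.52 over the cyclic AMP branch, 4.77 over the calcium branch, 3.41 over the shut-off genes and 7.99 over the G proteins. The 1.85 includes the tyramine receptor gene TyrRII, listed at 0 in all 3 cells. That 0 lowers this median, so nothing is read from its place below 2.33.

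**Figure D4:**
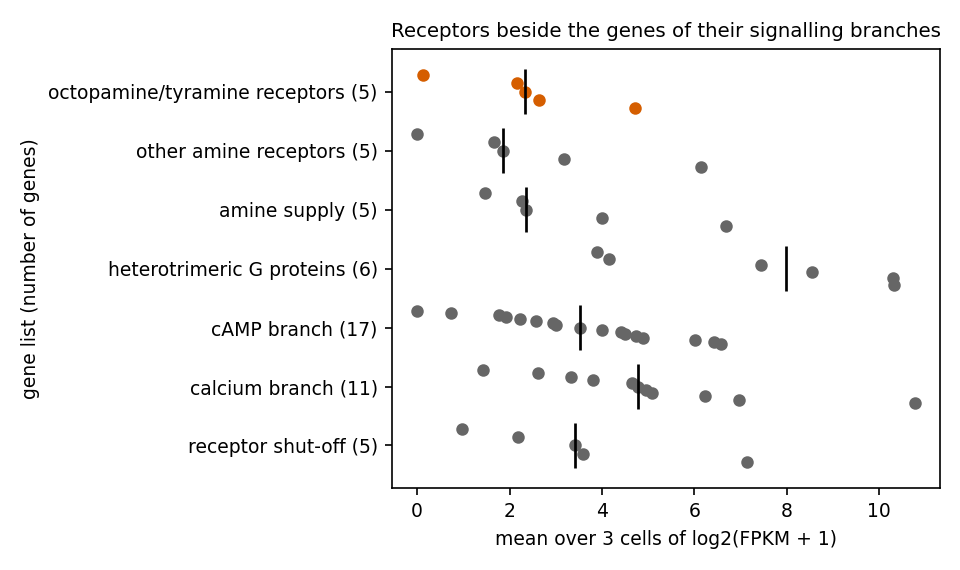
Mean over 3 cells of log2(FPKM + 1) for the octopamine and tyramine receptors (orange) and for the genes of the lists beside them (grey). Each point is 1 gene and the vertical lines are list medians, 2.33 for the receptors and 7.99 for the G proteins.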

How the data were processed

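Libraries of 3 samples of a single group (AKHR neuron, n = 3) were analysed. Per the labels, GFP-marked cells were picked from dissected brains and their RNA was amplified as cDNA by a SMART-type protocol. The authors removed low-quality reads, adaptor and primer sequence, mapped reads to the fly genome (HISAT is named in the submitters' processing notes) and deposited FPKM per gene. The quantifier, genome build and annotation are not given in the sources used here, and neither strand nor molecular identifiers are described. FPKM divides by gene length and the mapped total, and genes were compared on this scale, but abundant transcripts lower the values of others. The gene lengths used for the FPKM are not known. Whether amplification or coverage differed between transcripts was not tested. Orders and differences between genes are therefore those of the listed FPKM and may differ from those of the RNA in the cells. The column header of cell 3 gave a different sample number from its label, and the label was followed.

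The files held 11922 FlyBase IDs. Repeated lines of an ID (117 IDs, none of them a receptor gene) were averaged. Symbols, positions and transcript lengths came from BDGP6.54 (Ensembl release 115), with 11794 IDs matched. The receptor genes and gene lists were chosen with earlier results of these data known.

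Depth was estimated. For genes with 1 transcript, the depth between 1000000 and 10000000 fragments that best placed low values (up to 10 fragments) within 0.1 of a whole number was 6620000, 6280000 and 6550000 in cells 1, 2 and 3. It placed 66.2%, 45.8% and 56.9% of 198, 168 and 181 values there, where a fixed step would place 20% by chance, so whole reads were not recovered and no count test was used. A search up to 30000000 gave 12590000 for cell 2, so its fragment numbers may be too low. Fragments per gene used the mean transcript length, with exact Poisson intervals (95%). Fragments of amplified cDNA are not independent molecules, so these intervals are narrower than the true error.

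Differences were taken as log2(FPKM + 1) within cells and tested by an exact permutation test that flips the sign of each cell's difference (two-sided). This scale understates differences of low genes. Of 5 pairs planned within receptor types, 3 needed genes not analysed here. All receptors were named, with every amine supply gene, the 3 highest genes of each other list of the pathway and those listed at 0 in all cells, and the 3 nearest genes of each receptor above 0 in all cells. Markers were given as sums and counts, with elav, Syx1A and repo also by value. Procedures were tested on simulated data. Python 3.11.15, numpy 2.4.6, pandas 2.3.3, scipy 1.17.1 and matplotlib 3.10.9 were used. Alternatives were leaving out each cell, summing repeated lines, rescaling to a common sum, other detection thresholds, a pseudocount of 0.1 and a filter on low values.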

Additional observations from a re-analysis of the deposited data

How the results depend on the processing

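Alternatives gave 63 values for 11 results, of which 58 stayed within 1.5 times the main count, within the spread between cells or in the same direction, 5 moved and 0 reversed. The 58 include values that could not move. No receptor ID was repeated, so summing repeated lines changed nothing, and the filter on low values removed no cell. The number of receptors detected in all cells (2) was 1 at FPKM of at least 10, 3 at FPKM of at least 0.1 and 3 when each cell was rescaled to a common sum, and with 1 cell left out it was 2 to 4, highest without cell 1. The number detected in at least 1 cell stayed at 4 except at FPKM of at least 0.1, where it was 5. Pairs in the same order numbered 7 to 8 with a cell left out. With fewer cells, this count and that of receptors detected in all cells can only stay or rise. Oamb minus Octalpha2R ranged from -3.80 to -1.84 and Octbeta3R minus Octbeta2R from 1.49 to 2.80 with a cell left out, where the smallest exact permutation p is 0.5. No side of a threshold could change, since the tests could not reach 0.05. The means of Octalpha2R (50.7) and TyrR, and the receptor sum, moved under rescaling, which raised every gene. No paired analysis was possible because the 3 libraries form 1 group, so no samples could be paired across groups, and the only pairing was of genes within a cell. Low values and listed zeros limit what can be said of Octbeta2R and of TyrR in cell 1.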
